A study of Mus musculus with 21 samples.

Results

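Mouse chromosome 13 was followed in liver tumours by array comparative genomic hybridization (aCGH), which measures DNA copy number as the ratio of tumour DNA to reference DNA at short probes spread over the genome. Its members were taken by position: all non-control probes placed on chromosome 13, 4168 of the 96579 probes on the arrays, from chr13:3004789 to chr13:120274738 of the mouse build mm9. The 8 arrays of slide 1 carried 2425 of them and the 13 arrays of slides 2 and 3, of another array design, carried 2268, with 525 in both designs. The chromosome itself was chosen by its low mean log2 ratio in some of these tumours, so the level and the called losses of each tumour are given as a description, without a test.

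The tumours came from C57BL/6 mice kept for 12 months on CD-HFD, a high-fat diet without enough choline that leads to non-alcoholic steatohepatitis (NASH) and liver cancer. CD-HFD mice received no antibody (9 tumours of 7 mice), and anti-PD1 mice received an antibody against the immune checkpoint receptor PD1 for 8 weeks after those 12 months (12 tumours of 7 mice). The submitters' design text counts each tumour as a mouse, whereas the sample titles carry 14 mouse numbers, and mice were taken from the titles throughout. Tumours are named by mouse and lesion (2064 L1 is lesion 1 of mouse 2064), and 5 of the 14 mice gave more than 1 tumour. DNA was extracted from fixed, paraffin-embedded sections, which hold other cells of the liver beside tumour cells, and the reference on every array was a pool of DNA labelled as liver tails of the same strain. A lower ratio can come from more tumour cells with a loss or from a deeper loss in fewer cells, and these cannot be told apart here.

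Whole chromosomes are gained or lost when they are shared out unequally at cell division, and such changes accumulate in liver cancer. Chromosome 13 of the mouse carries genes of isoprenoid metabolism (Idi1), of gluconeogenesis (Fbp1) and of methionine metabolism (Mtr, Bhmt), receptors and signal carriers of hepatocyte growth control (Fgfr4, Smad5, Il6st), the telomerase gene Tert, and the granzyme genes Gzma and Gzmk of cytotoxic lymphocytes. A loss of the whole chromosome lowers the dose of all of them together, whereas a focal loss lowers that of a few neighbours. Within a section, a copy lost from every cell would pull the log2 ratio down further than a copy lost from some of them.

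The probes are the measuring points, and the sequences below show what was hybridized at the ends of the chromosome, at the ends of the stretch most often called lost within it, and at genes described later. Capitals mark G and C, because the level along the chromosome moved with base composition. Positions are of mm9, and all shown probes matched the + strand of the mouse genome GRCm38 once, where the GENCODE vM21 annotation was read.
First probe present on all arrays, chr13:3606678-3606737, an intron of Fam208b: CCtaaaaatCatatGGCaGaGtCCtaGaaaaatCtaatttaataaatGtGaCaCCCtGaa
Last probe present on all arrays, chr13:120262642-120262701, a coding exon of 4833420G17Rik: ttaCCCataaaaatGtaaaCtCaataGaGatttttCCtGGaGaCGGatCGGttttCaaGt
Start of the stretch, chr13:49804892-49804951, partly in a coding exon of Iars: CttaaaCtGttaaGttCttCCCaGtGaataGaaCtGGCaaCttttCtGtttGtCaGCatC
End of the stretch, chr13:57853088-57853147, an intron of Spock1: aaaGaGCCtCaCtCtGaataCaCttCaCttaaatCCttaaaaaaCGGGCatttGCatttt
Idi1, chr13:8887551-8887610, intron: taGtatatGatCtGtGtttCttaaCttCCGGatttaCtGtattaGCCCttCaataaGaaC
Cdk13, chr13:17842103-17842162, partly in a coding exon: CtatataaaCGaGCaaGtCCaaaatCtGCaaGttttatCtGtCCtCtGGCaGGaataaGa
Fgfr4, chr13:55267307-55267351, coding exon: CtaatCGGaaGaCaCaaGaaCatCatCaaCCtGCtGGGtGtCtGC
Rasa1, chr13:85357812-85357871, partly in a coding exon: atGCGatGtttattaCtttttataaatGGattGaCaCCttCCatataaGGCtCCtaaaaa

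Single probes had levels of their own in all tumours, so a chromosome is read from many of them. The Fgfr4 probe above, with 22 G or C among 45 bases, lay below 0 in 21 of 21 tumours (lowest −1.25, median −0.62, highest −0.097 on the log2 scale). The Rasa1 probe, with 18 among 60, lay below 0 in 2 of 21 (lowest −0.19, median 0.73, highest 1.22). Between the lesions of mouse 2064, single probes differed in both directions. The probe at the first position read 0.22 in 2064 L1 against 0.98 in 2064 L2, the last probe 0.16 against 0.84, the Cdk13 probe −0.11 against 1.22, and the Idi1 probe −0.85 against −0.20. The Fgfr4 probe went the other way, with −0.66 against −0.78. The noise between neighbouring probes was 0.41 to 0.68 per array, so none of these single values is precise. The lesions are therefore compared over all probes further below.

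The mean level of chromosome 13 was lowest in 1770 L1 and 2064 L1, tumours of CD-HFD mice, and lay below the array median by a smaller amount in 608 L1 and 608 L6, tumours of an anti-PD1 mouse, and in 1770 L4. The level is the mean log2 ratio of tumour over reference over all probes of the chromosome, after each array was centred on the median of its probes, and its standard error over probes was 0.0093 to 0.016. The mean was −0.22 in 2064 L1 and −0.22 in 1770 L1, which corresponds to 85.6% and 85.8% of the array median. It was −0.15 in 608 L1 (90.1%), −0.12 in 608 L6 (92.2%) and −0.067 in 1770 L4 (95.4%). The other 16 tumours lay between −0.0048 (2088 L1) and 0.12 (2064 L2), with a median of 0.078. A mean of −0.1 or lower was found in 51 of the 399 combinations of an autosome and a tumour (12.8%), 4 of them on chromosome 13. Its mean was below 0 in 6 of 21 tumours, 4 of the 9 from CD-HFD mice and 2 of the 12 from anti-PD1 mice, whereas 165 of the 399 combinations (41.4%) were below 0, a larger share than on chromosome 13 (not tested).

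Among the 12 anti-PD1 tumours the lowest level was −0.15 (608 L1), the median 0.069 and the highest 0.11 (612 L2). Among the 9 CD-HFD tumours the lowest was −0.22 (2064 L1), the median 0.058 and the highest 0.12 (2064 L2). The ranges of the groups overlapped, except that 1770 L1 and 2064 L1 lay below all anti-PD1 tumours and 2064 L2 slightly above all of them. The low values came from 3 mice, 608, 1770 and 2064.

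**Figure D1:**
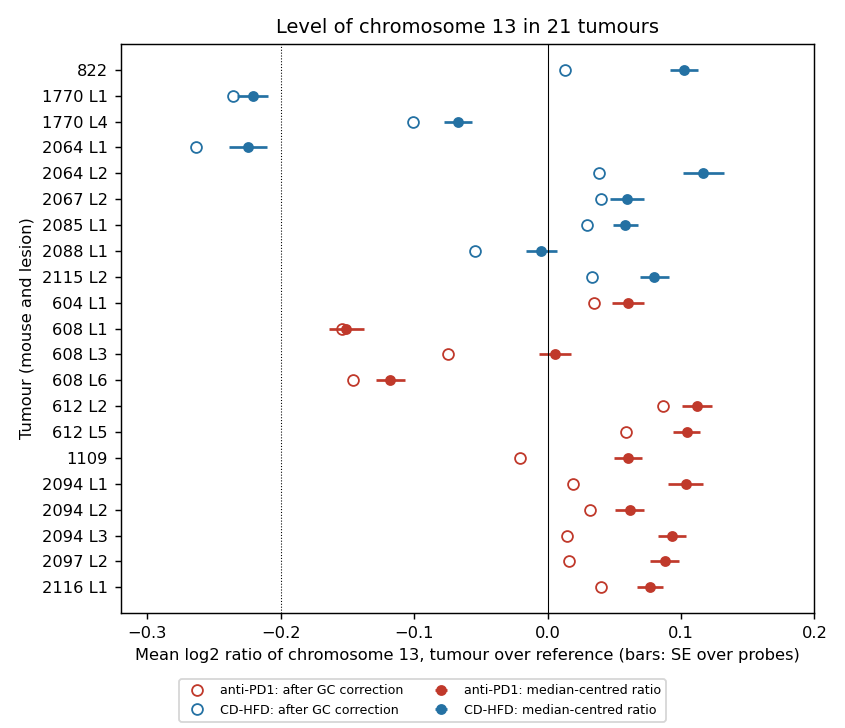
Mean log2 ratio of chromosome 13 in each of the 21 tumours, named by mouse and lesion; filled points are the median-centred ratios with the SE over probes, open points the same after correction for base composition, and the dotted line marks the threshold of a called loss, −0.2. Only 1770 L1 and 2064 L1 lie beyond the threshold, and the correction lowers most of the tumours above 0 towards 0.

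The low level was found in the tumour channel. Set against the median array of the same design, the mean log2 signal of chromosome 13 in the tumour channel was −0.35 in 2064 L1, −0.23 in 1770 L1, −0.15 in 608 L1, −0.10 in 608 L6 and −0.058 in 1770 L4, and its highest value was 0.12 in 612 L2. It did not set these 5 tumours apart, since it was −0.083 in 2088 L1 and −0.076 in 608 L3, whose ratios were near 0. In the reference channel it ran only from −0.024 (2094 L1) to 0.019 (2064 L2). The share of chromosome 13 probes with a ratio below 0 was 68.5% in 1770 L1, 64.9% in 2064 L1, 62.4% in 608 L1, 60.1% in 608 L6 and 56.1% in 1770 L4, and 42.2 to 51.5% in the other 16 tumours. Signal quality differed between these arrays. Of the tumour spots, 65.0% were well above background in 608 L1, the lowest of all arrays, 82.1% in 1770 L1, 85.9% in 2064 L1 and 96.3% or more in 1770 L4 and 608 L6. The arrays with the 3 lowest shares were thus those of the 3 tumours with the lowest chromosome 13 level, and the next lowest share was 88.4% in 2094 L1. With only the probes well above background in both channels, the level was −0.24 in 1770 L1, −0.23 in 2064 L1 and −0.17 in 608 L1. With normexp background correction it was −0.12, −0.16 and −0.085. The part of signal quality in the low levels was not tested further.

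Chromosome 13 held different places among the 19 autosomes of these tumours. In 1770 L1 it was the lowest autosome at −0.22, but chromosomes 8 (−0.22) and 4 (−0.21) were within its standard error of 0.012. In 608 L1 only chromosomes 9 and 12 were lower, and in 2064 L1 only chromosomes 4, 6 and 12. In 608 L6 and 1770 L4 it ranked 7 from the lowest. In the other 16 tumours its rank was 10 to 19, with a median of 17, the lowest of them in 608 L3 (10) and 2088 L1 (13). After correction for base composition the ranks of these 16 tumours ran from 5 to 17, with a median of 13. In 1770 L4 chromosome 13 then ranked 1 from the lowest, and in 608 L6 it ranked 6. The other autosomes were changed to very different extents beside it, with 21.5% of their probes in a called gain or loss in 1770 L1, 39.4% in 2064 L1, 19.8% in 608 L1, 55.3% in 608 L6 and 31.8% in 1770 L4. Over the remaining tumours that share ran from 0.041% to 43.2%.

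**Figure D2:**
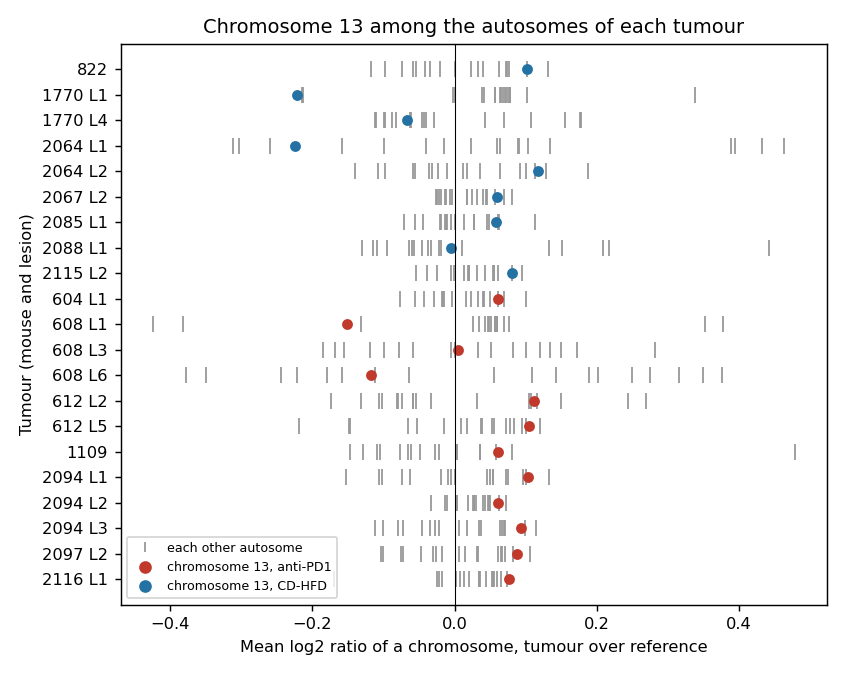
Mean log2 ratio of chromosome 13 (points, coloured by group) and of each of the other 18 autosomes (ticks) in each tumour. Chromosome 13 is level with the lowest other autosomes of 1770 L1 and stands at the upper end in most tumours whose level is above 0.

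Losses and gains were called by segmentation of the same ratios, so the calls restate the levels. Each chromosome of each tumour was divided into segments of constant level by least squares, and a segment of at least 10 probes with a mean of −0.2 or lower was called a loss and one of 0.2 or higher a gain. In 1770 L1 all 2425 probes and in 2064 L1 all 2268 probes fell into 1 segment, with means of −0.22 (SE 0.012) and −0.22 (SE 0.014), and 100% of the chromosome was called lost. In 608 L1 the chromosome was also 1 segment, at −0.15 (SE 0.013), just above the threshold and therefore without a call. Of the 399 combinations of an autosome and a tumour, 14 (3.51%) had at least 50% of the probes in a loss, and chromosome 13 gave 2 of them in its 21 tumours. At least 50% in a gain was found in 23 (5.76%), none of them on chromosome 13. A level so near the threshold decides the call: at a threshold of 0.1 the count was 3 tumours with 608 L1 added, and at 0.3 it was 0. With normexp background correction it was 0 as well.

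Along the chromosome the level was read in bins of 5 Mb, 24 on the design of slide 1 and 25 on the other. In 1770 L1, 24 of 24 bins were below 0, between −0.43 and −0.086. In 608 L1, 24 of 24 were below 0 as well, between −0.33 and −0.048. In 2064 L1, 24 of 25 were below 0, down to −0.48, and only the last bin was above 0, at 0.11 with an SE of 0.18 over 15 probes. That bin was above 0 on all 13 arrays of slides 2 and 3, up to 0.53 in 2094 L1. Of the remaining low tumours, 608 L6 had 20 of 24 bins below 0, from −0.38 to 0.12. In 1770 L4 it was 17 of 24, from −0.41 to 0.29. The SD of the bins was 0.11 in 608 L6 and 0.15 in 1770 L4. It was 0.071 in 608 L1, 0.075 in 1770 L1 and 0.12 in 2064 L1. After the correction for base composition described below, these SDs were 0.054 and 0.057, against 0.064, 0.071 and 0.12. In the other 16 tumours 1 to 13 bins lay below 0, with a median of 3. Split at the median probe, the first part of the chromosome and the second read −0.23 and −0.21 in 1770 L1, −0.24 and −0.21 in 2064 L1, −0.14 and −0.16 in 608 L1, and −0.11 and −0.028 in 1770 L4.

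**Figure D3:**
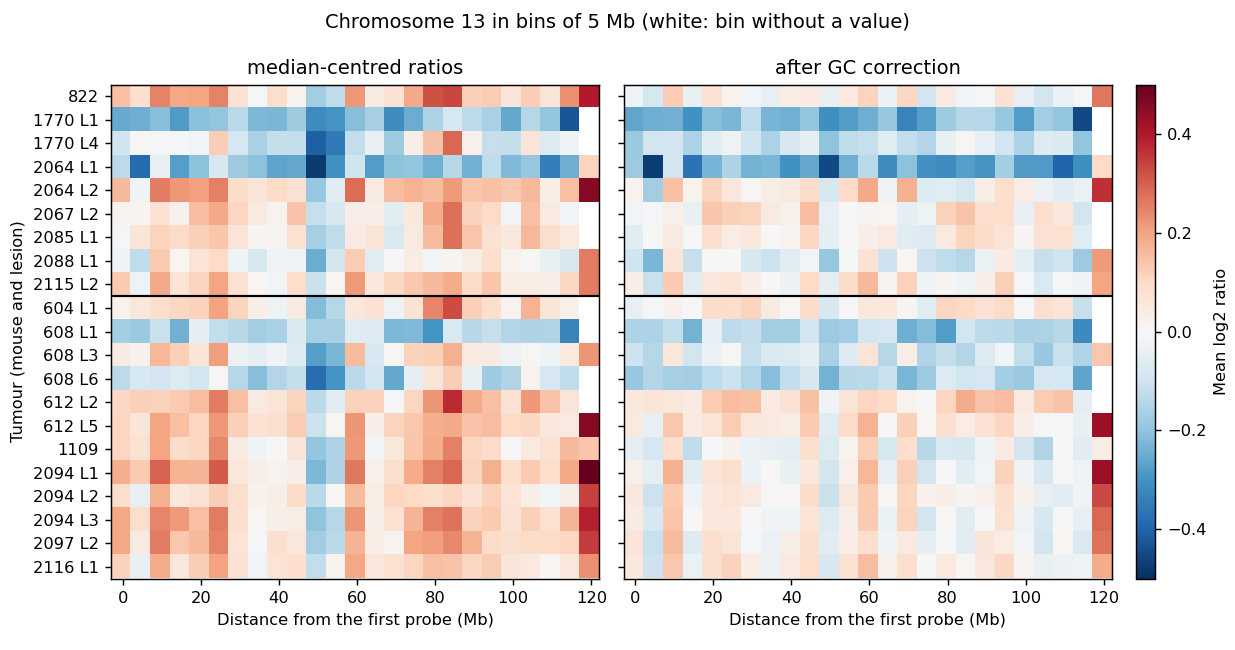
Mean log2 ratio of chromosome 13 in bins of 5 Mb, one row a tumour, by distance from the first probe, before (left) and after (right) correction for base composition; the black line separates CD-HFD (above) from anti-PD1 tumours (below). The rows of 1770 L1, 2064 L1 and 608 L1 are low along their length, and a low stretch near the middle that crosses nearly all rows on the left is fainter on the right.

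A profile common to the tumours lay over these levels. The stretch from 50 to 58 Mb was below 0 in 21 of 21 tumours (lowest −0.43 in 1770 L4, median −0.18, highest −0.052 in 2115 L2) and below the rest of the chromosome in 21 of 21, by a median of 0.27 on the log2 scale. It holds Fgfr4, Smad5, Cxcl14 and Gadd45g, and G and C made up 47.1% of the 50 kb around its probes, against 42.3% over the chromosome and 43.3% over all chromosomes. The stretch from 82 to 90 Mb, with Ccnh and Rasa1 and 37.3% G and C, was the opposite: it was above the rest of the chromosome in 21 of 21 tumours (lowest level −0.16 in 2064 L1, median 0.23, highest 0.38 in 822). After a correction for base composition, at the probe itself and within its surrounding 50 kb, the first stretch differed from the rest by −0.033 and the second by −0.00035 (medians over tumours), and the first was still below the rest in 19 of 21 tumours. In the authors' loess-normalized ratios the differences were −0.22, in 21 of 21 tumours below the rest, and 0.26, in 21 of 21 above it. How much of either stretch is copy number was not tested.

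The same order held in windows of 1 Mb, of which 109 could be measured. The lowest median over the tumours was −0.29 at 54 to 55 Mb (below 0 in 21 of 21 tumours; Hrh2, Sncb and Faf2 among the genes), followed by −0.23 at 56 to 57 Mb (20 of 21; Smad5, Cxcl14 and Tgfbi) and −0.21 at 53 to 54 Mb (18 of 21; Nfil3, Ror2 and Msx2). The highest were 0.45 at 82 to 83 Mb, where no gene is named on the arrays, 0.40 at 86 to 87 Mb (Cox7c, a subunit of the respiratory chain) and 0.36 at 92 to 93 Mb (Msh3, a mismatch repair gene, and Ckmt2). Across the 109 windows the median level and the G and C content had a correlation of −0.56 (rho −0.53), given as a description, since windows share arrays and neighbours. The SD of the window medians was 0.14 before and 0.11 after the correction.

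**Figure D4:**
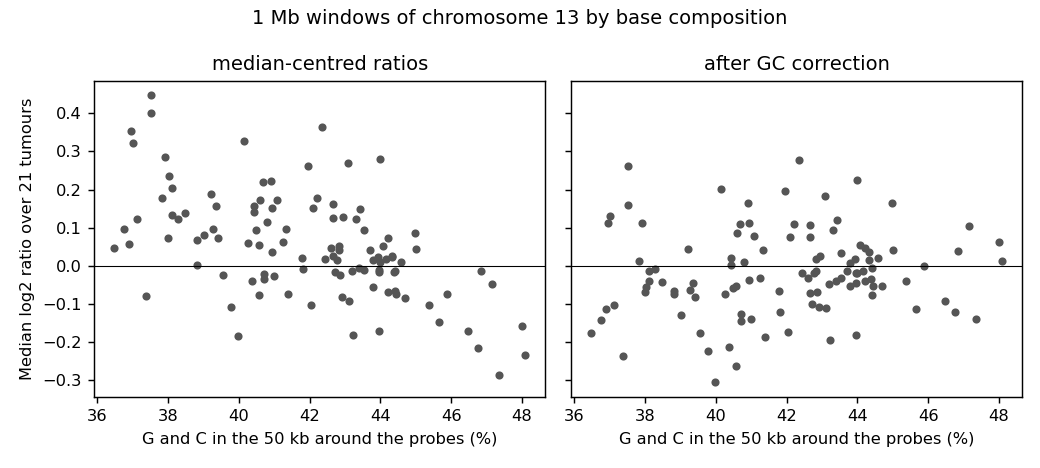
Median log2 ratio over the 21 tumours in the 109 windows of 1 Mb against the share of G and C in the 50 kb around their probes, before (left) and after (right) the correction. Windows rich in G and C lie lower on the left, and the slope is mostly gone on the right.

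The smaller losses called within the chromosome followed that profile. They were called in 6 tumours: at chr13:49804892-57853147 in 608 L6 (mean −0.41, SE 0.036, 186 probes) and 2085 L1 (−0.20, SE 0.032, 186 probes), a little further to 57910111 in 1770 L4 (−0.44, SE 0.034, 188 probes), from 50439654 in 604 L1 (−0.24, SE 0.040, 176 probes), and over much the same stretch in 608 L3 (−0.23, SE 0.031, 339 probes) and 1109 (−0.20, SE 0.033, 241 probes). In 612 L2, 2094 L1, 2094 L3, 2097 L2 and 822 a segment over that stretch lay at −0.15 to −0.19 and was not called. Gains were called in 4 tumours, the widest in 2094 L1 (25.7% of the probes) and 822 (22.1%). The highest held 10 probes each: 0.93 (SE 0.20) at chr13:49529210-49755376 in 2094 L1 and 0.76 (SE 0.19) at chr13:49615136-49818159 in 2094 L3. Others were at 0.62 (SE 0.13, 32 probes) from 118038087 in 2094 L1 and 0.33 (SE 0.054, 95 probes) at chr13:82245897-89709930 in 1770 L4. After the correction for base composition no tumour kept a loss in only a part of the chromosome and no tumour a gain, whereas 1770 L1 and 2064 L1 kept their loss of 100%. With the median profile of each design subtracted instead, 72.3% of the chromosome was called lost in 1770 L1 and 100% in 2064 L1. That setting also called losses of 11.6% in 608 L1 and 0.49% in 2116 L1 and kept a gain in 2094 L1.

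The correction also moved whole-chromosome levels. They became −0.26 in 2064 L1, −0.24 in 1770 L1, −0.15 in 608 L1, −0.15 in 608 L6 and −0.10 in 1770 L4. Under it 24 of 24 bins of 608 L6 and 23 of 24 of 1770 L4 were below 0. In 608 L3 the level went from 0.0054 to −0.075, with 20 of 25 bins below 0, in 2088 L1 from −0.0048 to −0.054, with 19 of 25, and in 1109 from 0.060 to −0.021, with 16 of 25. Over 9 ways to compute the level, it stayed below 0 in all 9 for 1770 L1, 2064 L1, 608 L1, 608 L6 and 1770 L4. It was below 0 in 8 for 2088 L1, in 4 for 608 L3, in 2 for 1109 and in 1 for 2094 L2. Its range was −0.36 to −0.16 in 2064 L1 and −0.26 to −0.12 in 1770 L1.

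Lesions of 1 mouse did not always share the level. In mouse 2064, lesion 1 was at −0.22 and lesion 2 at 0.12 on the same slide, and over the same 2268 probes lesion 1 was lower by 0.34 (SE over probes 0.011). It was lower in 25 of 25 bins, with differences between −0.49 and −0.25, so the gap ran along the entire chromosome. In mouse 1770 both lesions were below 0, lesion 1 by 0.15 lower than lesion 4 (SE 0.0093) and lower in 22 of 24 bins. The 2 exceptions were the neighbouring bins between 50 and 60 Mb, over the common low stretch, where lesion 4 read −0.41 and −0.35.

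In mouse 608, lesions 1 and 6 were near each other, with a difference of −0.033 (SE 0.011) and lesion 1 lower in 13 of 24 bins. Lesion 3 of that mouse was on another design, and over the 525 common probes it was at 0.013, against −0.097 in lesion 6 and −0.051 in lesion 1. With each array centred on the median of the common probes instead, the levels were 0.0050, −0.089 and −0.12, so that of 608 L1 depended on the centre as well as on the probes, being −0.15 over all of its probes. In mouse 2094, by contrast, lesions 1 and 3 differed by 0.010 (SE 0.0072). Between tumours of different mice on the same slide the difference in level had a median size of 0.082 over 62 pairs and reached 0.33, and the 4 pairs within a mouse on a slide ran from 0.010 to 0.34. With 4 pairs no test of shared origin was made.

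**Figure D5:**
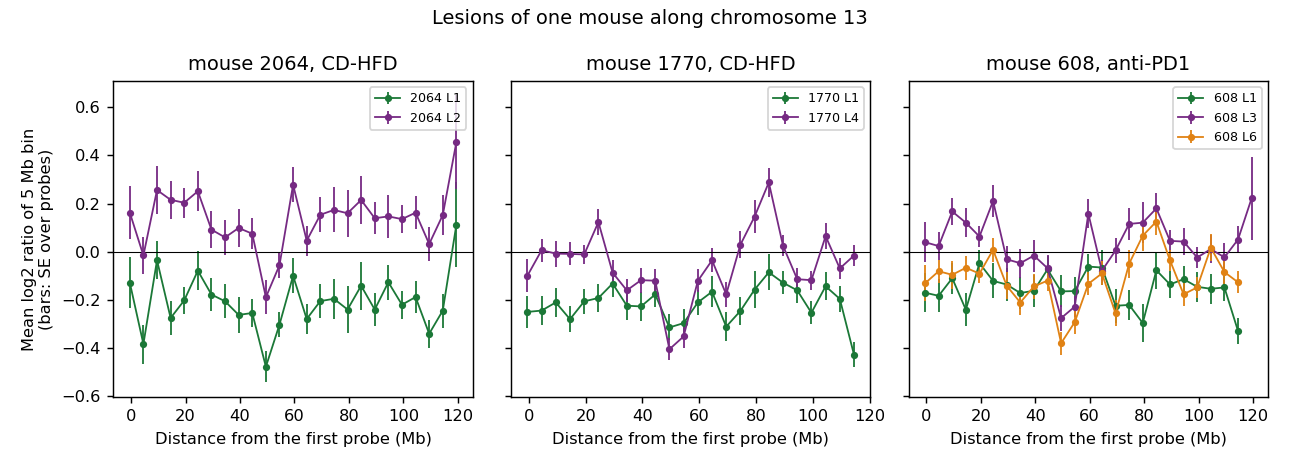
Mean log2 ratio of 5 Mb bins of chromosome 13 by distance from the first probe for each lesion of mice 2064, 1770 and 608, with the SE over probes. The lines of 2064 L1 and 2064 L2 run in parallel and apart, those of 1770 differ less, and 608 L1 and 608 L6 cross.

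The comparison the study was made for, tumours of anti-PD1 mice against those of CD-HFD mice, found no difference in the level of chromosome 13 past the threshold. The mean over mice was 0.056 ± 0.066 (SD, n = 7 mice) in anti-PD1 and 0.014 ± 0.088 (SD, n = 7 mice) in CD-HFD, and 6 of 7 anti-PD1 mice lay above the CD-HFD mean. This difference of 0.042 had p = 0.33 by exact permutation of the mice (two-sided, 3432 splits). In the limma fit over 20 chromosomes, with the mouse as block, anti-PD1 was higher by 0.053 (SE 0.046, unadjusted p = 0.26, Benjamini-Hochberg adjusted p = 0.88). The correlation within mice in that fit was −0.0092, so lesions of 1 mouse counted nearly as independent tumours. The fit called 0.00% of chromosomes, and at an unadjusted p under 0.05 it also called 0 of 20. The difference rested on single mice: it was 0.097 without mouse 608 of the anti-PD1 group (p = 0.028, adjusted p = 0.50) and 0.014 without mouse 1770 of the CD-HFD group (adjusted p = 0.97). The chromosome was chosen by these levels. All p-values for its level and windows, also without single mice and within slides, are therefore given as a description.

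Slides were read apart, since their arrays differ. On slide 1 the mean was 0.013 in anti-PD1 and −0.0089 in CD-HFD (3 mice each), on slide 2 it was 0.088 and 0.0072 (3 mice each), and on slide 3 it was 0.058 over 4 anti-PD1 mice against 0.10 in the single CD-HFD mouse. The sign was therefore not the same on all slides. With groups exchanged only within slides, the difference was 0.031 (exact permutation, two-sided, 2000 arrangements, p = 0.46). Mice 608, 612 and 2094 had tumours on more than 1 slide and entered once per slide, so an arrangement could place such a mouse in both groups, and the p-values within slides are approximate for that reason. The exact tests within a slide cannot go below 0.1 on slides 1 and 2 or 0.2 on slide 3.

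The share of the chromosome called lost was 3.63 ± 4.66% in anti-PD1 mice and 15.9 ± 24.8% in CD-HFD mice (SD, n = 7 mice each; exact permutation, two-sided, 3432 splits, p = 0.347). The calls restate the levels by which the chromosome was chosen, so the p-values for the share lost are given as a description. The larger mean came from mice 1770 (53.9%) and 2064 (50%, lesion 1 at 100% and lesion 2 at 0%). The difference of −12.3 percentage points became −5.98 without mouse 1770 and −6.63 without mouse 2064, and it nearly vanished with normexp background correction (−0.23) and at a threshold of 0.3 (−0.19), where neither tumour keeps its call; at a threshold of 0.1 it was −3.92. The share called gained was 1.25 ± 3.30% against 3.44 ± 8.28% (exact permutation, p = 0.73), from 1 and 2 mice of the groups. The spread along the chromosome, the SD of its 5 Mb bins, was 0.106 ± 0.014 against 0.105 ± 0.017 (exact permutation, p = 0.91), and noise between probes alone would give 0.043 to 0.081 per tumour. Within slides the differences were −11.9 points for loss (p = 0.345), −3.20 points for gain (p = 0.15) and −0.00079 for the spread (p = 0.93), each by exact permutation.

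Of the 109 windows of 1 Mb on chromosome 13, 0 passed an adjusted p of 0.05 in limma, as did 0 of the 2223 windows of all chromosomes (0.00%). At an unadjusted p under 0.05 there was 1 on chromosome 13, against 0.900% of all windows. Without mouse 608 there were 23 of 109, against 91 of 2223 over all chromosomes. The window of the fit with all mice, at 62 to 63 Mb, holds Fbp1 and Fbp2, genes of fructose-1,6-bisphosphatases. It was at 0.057 ± 0.15 in anti-PD1 and −0.079 ± 0.18 in CD-HFD mice (SD, n = 7 mice each; limma difference 0.17, SE 0.083, unadjusted p = 0.047, adjusted p = 0.999). Over mice, 97 of the 109 windows (89.0%) had the higher mean in anti-PD1, with a median difference of 0.049, against 49.5% of windows and a median of −0.00048 over all chromosomes. Windows of 1 chromosome move together, so this count repeats the difference of the chromosome mean.

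The genes of the chromosome were read as the mean of all probes from 500 kb before to 500 kb after the probes that carry their name. Of 58 genes in 3 lists 53 could be read, and Hmgcs1, Sox4, Cdk7, Tcrg and Ccl28 had no probe of their name. In 1770 L1, 50 of the 53 lay below 0, with a median of −0.21, while 40.4% of all windows of that tumour did. In 2064 L1 it was 44 of 53 (median −0.29, all windows 44.8%) and in 608 L1 47 of 53 (median −0.15, all windows 42.6%). In 608 L6 and 1770 L4 it was 43 of 53 each (49.2% and 44.0% of all windows). Over the 21 tumours the count ran from 11 to 50, with a median of 20. The genes are read from the probes of the chromosome mean, so these counts restate the levels by which the chromosome was chosen.

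In the remaining tumours the genes were below 0 no more often than windows of the genome, with the exceptions of 2088 L1 and 608 L3. On slide 1 it was 21 of 53 genes in 604 L1 (43.3% of all windows), 11 in 612 L2 (44.9%), 22 in 2067 L2 (43.9%) and 18 in 2085 L1 (40.0%). On slide 2 it was 17 in 2094 L1 (34.7%), 16 in 2094 L3 (33.3%), 17 in 2097 L2 (33.9%), 20 in 2116 L1 (37.7%), 18 in 2064 L2 (38.6%), 29 in 2088 L1 (43.2%) and 19 in 2115 L2 (36.4%). On slide 3 it was 29 in 608 L3 (36.0%), 12 in 612 L5 (37.6%), 20 in 1109 (38.1%), 20 in 2094 L2 (38.3%) and 16 in 822 (34.1%). The highest counts of this set, in 2088 L1 and 608 L3, belong to the tumours whose chromosome mean was nearest to 0. Neighbours such as Bhmt, Bhmt2 and Dmgdh share most of their probes and are not separate measurements.

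Between the lesions of mouse 2064, 53 of 53 genes were lower in lesion 1, by 0.11 (Gadd45g) to 0.55 (Pfkp). Between those of mouse 1770, 45 of 53 were lower in lesion 1, and between lesions 1 and 6 of mouse 608 it was 28 of 53. These counts repeat the differences in chromosome level between the lesions, since the genes are read from the same probes.

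Of the liver metabolism genes, 17 of 18 were read, and 16 were below 0 in 1770 L1, 15 in 608 L6, 15 in 1770 L4, 14 in 608 L1 and 13 in 2064 L1, against a median of 5 over the tumours. Idi1, which isomerizes isopentenyl diphosphate, had its lowest level in 2064 L1 (−0.41), a median of −0.094 and its highest in 2094 L1 (0.070). It was below 0 in 15 of 21 tumours, and its median was −0.18 after the correction for base composition.

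Fbp1, the gluconeogenic fructose-1,6-bisphosphatase (chr13:62966145-62988184), ran from −0.25 in 2064 L1 over a median of 0.13 to 0.28 in 2064 L2, so the lowest and highest levels came from lesions of the same mouse. Mtr, methionine synthase (chr13:12279221-12335861), ran from −0.35 in 1770 L1 over a median of 0.024 to 0.20 in 2094 L1, with a median of −0.0026 after the correction. Srd5a1, a steroid reductase, was below 0 in 21 of 21 tumours (lowest −0.39 in 2064 L1, median −0.11, highest −0.011 in 2116 L1), and its median was −0.027 after the correction. Nnt, the mitochondrial transhydrogenase at the far end of the chromosome (chr13:120123734-120193804), was at −0.22 in 1770 L1, its lowest, and had a median of 0.24, or 0.13 after the correction.

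Of the genes of growth, cell cycle and DNA repair, 26 of 28 were read, and 24 were below 0 in 1770 L1, 24 in 608 L1, 22 in 2064 L1, 19 in 608 L6 and 19 in 1770 L4, against a median of 9. Smad5, which carries bone morphogenetic protein signals (chr13:56811482-56840049), was below 0 in 21 of 21 tumours (lowest −0.60 in 1770 L1, median −0.28, highest −0.048 in 2115 L2). Fgfr4, the hepatocyte receptor that restrains bile acid synthesis (chr13:55257926-55267351), was too (lowest −0.53 in 1770 L4, median −0.23, highest −0.0051 in 2115 L2). After the correction their medians were −0.084 and 0.054, and both lie in the stretch whose level moved with base composition.

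Rasa1, a brake on RAS (chr13:85357812-85422455), had the highest median of all genes read, 0.36, with −0.056 in 608 L1 and 0.56 in 2064 L2, and a median of 0.13 after the correction. Ptch1, the Hedgehog receptor (chr13:63619343-63661784), was below 0 only in 1770 L1 (−0.15) and had a median of 0.27. Tert, the catalytic subunit of telomerase (chr13:73765173-73771750), ran from −0.34 in 608 L6 over a median of 0.0059 to 0.21 in 2094 L2, and the correction raised its median to 0.14. Pik3r1, a regulatory subunit of PI3 kinase, was lowest in 1770 L1 (−0.31) and highest in 2064 L2 (0.37), and Klf6, a zinc finger transcription factor, was lowest in 2064 L1 (−0.50) and highest in 1109 (0.24). Their medians went from 0.15 to 0.091 and from −0.0067 to −0.099 with the correction.

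Of the immune genes, 10 of 12 were read, and 10 were below 0 in 1770 L1 and 9 each in 2064 L1, 608 L1, 608 L6 and 1770 L4, against a median of 7. Gzma and Gzmk, granzymes of cytotoxic lymphocytes that lie beside each other, were lowest in 2064 L1 (−0.46 each), with medians of −0.10 and −0.099. Cxcl14, a chemokine gene of the common low stretch, was below 0 in 21 of 21 tumours (lowest −0.55 in 608 L6, median −0.25) and had a median of 0.010 after the correction. Irf4, a transcription factor of lymphocytes, was above 0 in most, with a median of 0.18 (0.11 after the correction) and −0.050 in 608 L1. Syk, a kinase of immune receptor signalling, ran from −0.44 in 2064 L1 over a median of −0.061 (0.0029 after the correction) to 0.11 in 2067 L2.

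Between the groups, 46 of the 53 genes had the higher mean over mice in anti-PD1 and 7 in CD-HFD, with a median difference of 0.044. By list it was 14 of 17 for liver metabolism (median 0.052), 22 of 26 for growth, cell cycle and DNA repair (0.051) and 10 of 10 for the immune genes (0.032). The largest difference was that of Klf6, 0.044 ± 0.12 against −0.084 ± 0.18 (SD, n = 7 mice each), and Pfkp, a phosphofructokinase of glycolysis, followed with 0.15 ± 0.18 against 0.031 ± 0.19. Of the 53 differences 0 were larger than the larger SD of the groups, and the direction is that of the chromosome mean, so the lists add nothing to it.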

How the data were processed

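Copy number was measured in 21 tumours on 2-colour arrays with tumour DNA in Cy3 and reference DNA in Cy5, without dye swaps. The authors deposited spot intensities written by Agilent Feature Extraction 11.0.1.1 with mm9 positions; per the file headers its processed signals had spatial and multiplicative trends removed and the dyes normalized, with surrogate values in place of signals near background, which limits ratios of dim spots. The deposited log10 ratio of reference over tumour was made by that program from its processed signals, and matched them within 0.001 in at least 99.4% of spots per array. The authors also deposited loess-normalized log2 ratios of 11526 probes (488 on chromosome 13), used as an alternative; 20 of 21 columns correlated best with their own array (r of all columns 0.70 to 0.94); that of 2064 L2 (r = 0.70) correlated slightly better with the array of 822 and was kept by its name.

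Here log2 of tumour over reference processed signal was centred on each array's median, without loess. Outlier and control spots were left out. Segments (optimal partitioning, at least 10 probes, penalty 3 times noise variance times the logarithm of probe number), exact permutation of mouse means and gene levels used Python 3.11.15 with numpy 2.4.6; windows of 1 Mb with at least 5 probes and chromosome means used limma 3.58.1 in R 4.3.3 (duplicateCorrelation with mouse as block, eBayes, Benjamini-Hochberg). Mice are the replicates of the permutation tests. In limma the tumours entered with the mouse as block, at correlations within mice of −0.0092 (chromosomes) and 0.0060 (windows). The number of arrays limits precision. Steps were tested on simulated data.

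For naming, the rule took each tumour's lowest and highest segment, the 3 windows with the lowest and the 3 with the highest median, the window with the smallest p, and in each of 3 gene lists the lowest and highest gene and about 6 others. The members and lists were chosen with earlier results of these data known. Alternatives were loess ratios, normexp, correction for base composition (4156 of 4168 probes matched GRCm38 once), bright probes, another centre, the median profile subtracted, common probes, medians, mice or slides treated otherwise, array weights, other windows, bins, thresholds and penalty, and each mouse left out. The result of 1 listed gene is not reported here.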

Additional observations from a re-analysis of the deposited data

Results flagged for a closer look

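Mouse 608 stood apart from the other anti-PD1 mice. Its mean chromosome 13 level over 3 lesions was −0.088, while the nearest of the other 6 mice was at 0.060, and this gap was 0.76 of the whole range of the group, above the limit of 0.568 used to mark 1 of 7 mice. The chromosome was chosen by these levels, so the mark is a description. Its lesion 1 had the lowest share of tumour spots well above background of all arrays, 65.0%, while its lesion 6 was at −0.12 and its lesion 3 at 0.0054; the part of signal quality was not tested.

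Mouse 822 of the CD-HFD group had 22.1% of chromosome 13 called gained, with the nearest mouse at 1.96%. Mouse 2094 of the anti-PD1 group had 8.73%, with the other 6 mice at 0. Its share came from 2 of its 3 lesions, 25.7% in 2094 L1 and 0.44% in 2094 L3. Neither mouse had a gain called after the correction for base composition, in the loess ratios, over the common probes or with another penalty. By contrast, 822 had one with normexp and with bright probes only. A gain was also called in 2094 L1 with the median profile subtracted or another centre, and in 2094 L3 with bright probes only or another centre. At a threshold of 0.3 both of these lesions kept a gain and 822 did not. The segment called in 822 lay at the threshold, with a mean of 0.20 (SE 0.022). In all 8 sets of 7 mice were looked at, and chance marks about 1 in 20 sets of continuous values. Shares gained were 0 in most mice, so that rate does not hold for them and a single mouse with a gain is marked in any case.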

How the results depend on the processing

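The group difference of the chromosome mean kept its direction and missed the threshold in all 11 alternatives (0.021 to 0.060, adjusted p 0.81 to 0.97) and with each mouse left out (0.014 to 0.097, adjusted p 0.50 to 0.97). Windows of chromosome 13 past the threshold stayed at 0 in all fits, with 0 to 23 at an unadjusted p under 0.05. The most, 23 of 109, came without mouse 608, against 91 of 2223 windows over all chromosomes. The difference in the share lost kept its direction in 11 alternatives (−14.8 to −0.19 points) and with each mouse left out (−15.0 to −5.98). The difference in the share gained turned positive with the median profile subtracted (0.078 points, p = 1) and at a threshold of 0.1 (15.8, p = 0.49), and ran from −3.44 to 0.92 with each mouse left out. The difference in spread was near 0 and changed sign under normexp (−0.0064), correction for base composition (−0.0032), the subtracted profile (−0.0015), common probes (−0.0020), bins of 2 Mb (−0.0024) and within slides (−0.00079), and ran from −0.0023 to 0.0057 with each mouse left out; its p by exact permutation was 0.42 or higher throughout. The count of tumours with a level below 0, 6 in the main setting, was 5 to 9. The count of tumours with at least 50% of the chromosome lost, 2 in the main setting, was 0 under normexp and 0 at a threshold of 0.3. The count with a smaller loss, 6 in the main setting, was 0 under correction for base composition, with loess ratios and over common probes. It was 1 with another penalty, 2 at a threshold of 0.3 and 11 at a threshold of 0.1. The cause of these shifts was not tested. Of 168 levels of single tumours under alternatives 17 moved by more than the SD over mice, as did 40 of 210 shares lost and 71 of 318 gene medians. No paired analysis was possible because each mouse belongs to 1 group. Limits are the signal over background of 608 L1, 1770 L1 and 2064 L1, the lowest of the arrays, and the noise of 2064 L2, the largest of the arrays at 0.68.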
